A study of Mus musculus with 321 samples.

Results

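Islands of 2 repressive histone marks, H3K27me3 and H3K9me3, were compared in NIH3T3, an established mouse fibroblast line. The members were the 4 libraries of 321 in the series whose labels name a ChIP-seq of either mark in NIH3T3 without naming a retrovirus: replicates 1 and 2 of each mark. ChIP-seq recovers the DNA bound to a chosen protein, and an island is a stretch of the genome where the ChIP reads exceeded those of a control library. The H3K27me3 lists held 46370 and 46690 islands and the H3K9me3 lists 24147 and 26988. The series as a whole asked how the transcription factor Tcf-1 relates to chromatin in developing T cells and, after forced expression, in these fibroblasts. All 4 libraries came from cells of the genotype NIH/Swiss at passages 8 to 12, with the antibody EMD 07-449 for H3K27me3 and Active Motif 39161 for H3K9me3. The cells are 1 line, and nothing in the labels says that the replicates were separate cultures, so every p-value below measures only the spread between these libraries. Open chromatin peaks from 4 ATAC-seq libraries of NIH3T3 carrying an empty retrovirus (Empty RV), of the same genotype and passages, were used as a readout that did not choose the islands.

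H3K27me3 is the trimethylation of lysine 27 on histone H3. It is placed by the Polycomb repressive complex PRC2 and is known for holding developmental genes silent in cells that do not use them. H3K9me3, on lysine 9, is bound by HP1 proteins and is known for constitutive heterochromatin, for silenced repeats and for clusters of zinc-finger genes, where the protein ZNF274 and the methyltransferase SETDB1 act. A fibroblast is a mesenchymal cell of connective tissue, so neural, epithelial and lymphoid genes are ordinarily silent in it.

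The DNA under the marks is shown by 7 promoters. Each is the promoter with the middle number of CpG among those of a family that lay wholly inside a mark's islands in both replicates, from RefSeq (GRCm38.p6), and was chosen after the values were seen. Each runs 5′ to 3′ along its gene, from 250 bases before the start site to 50 after it, and capitals mark the dinucleotide CG, which reads the same on both strands. The first 3 lay inside H3K27me3, and the other 4 inside H3K9me3. Hoxb8 (chr11:96281655-96281954, plus strand) is a clustered homeobox factor with 13 CG, Wnt9b (chr11:103749772-103750071, minus) a secreted signal with 29, and Krt40 (chr11:99543171-99543470, minus) a keratin with 5. Sox2 (chr3:34649745-34650044, plus) is a neural and pluripotency factor with 27 CG, and Zfp33b (chr5:104571422-104571721, plus) a zinc-finger gene with 9. Olfr124 (chr17:37804819-37805118, plus) is an odorant receptor and Vmn2r73 (chr7:85875889-85876188, minus) a pheromone receptor, with 1 CG each.
Hoxb8: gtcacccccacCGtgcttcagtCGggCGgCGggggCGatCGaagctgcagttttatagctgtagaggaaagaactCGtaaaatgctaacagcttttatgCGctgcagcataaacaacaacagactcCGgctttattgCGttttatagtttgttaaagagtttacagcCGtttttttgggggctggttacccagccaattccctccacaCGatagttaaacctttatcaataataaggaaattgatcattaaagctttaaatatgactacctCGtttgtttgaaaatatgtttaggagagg
Wnt9b: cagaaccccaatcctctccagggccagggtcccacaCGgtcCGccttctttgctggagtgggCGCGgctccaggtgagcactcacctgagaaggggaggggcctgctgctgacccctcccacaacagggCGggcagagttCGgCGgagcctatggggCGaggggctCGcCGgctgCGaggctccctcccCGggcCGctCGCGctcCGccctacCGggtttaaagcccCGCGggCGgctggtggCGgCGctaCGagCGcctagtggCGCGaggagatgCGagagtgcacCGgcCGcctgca
Krt40: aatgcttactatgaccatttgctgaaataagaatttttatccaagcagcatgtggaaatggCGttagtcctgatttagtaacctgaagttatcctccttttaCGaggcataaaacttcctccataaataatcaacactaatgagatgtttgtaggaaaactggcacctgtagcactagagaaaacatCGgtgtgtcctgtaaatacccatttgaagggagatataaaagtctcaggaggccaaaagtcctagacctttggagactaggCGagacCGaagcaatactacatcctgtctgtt
Sox2: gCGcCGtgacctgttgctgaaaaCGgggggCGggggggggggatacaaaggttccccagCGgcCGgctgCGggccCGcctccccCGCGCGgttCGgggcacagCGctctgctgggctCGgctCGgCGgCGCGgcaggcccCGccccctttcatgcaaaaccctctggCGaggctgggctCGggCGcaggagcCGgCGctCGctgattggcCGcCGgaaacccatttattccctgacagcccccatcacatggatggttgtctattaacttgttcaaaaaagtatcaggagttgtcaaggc
Zfp33b: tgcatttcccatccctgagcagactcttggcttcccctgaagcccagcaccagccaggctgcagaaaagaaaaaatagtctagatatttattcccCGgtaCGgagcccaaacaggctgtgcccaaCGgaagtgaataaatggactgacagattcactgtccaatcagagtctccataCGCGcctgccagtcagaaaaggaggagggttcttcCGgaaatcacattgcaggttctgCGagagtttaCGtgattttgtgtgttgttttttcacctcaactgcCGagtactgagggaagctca
Olfr124: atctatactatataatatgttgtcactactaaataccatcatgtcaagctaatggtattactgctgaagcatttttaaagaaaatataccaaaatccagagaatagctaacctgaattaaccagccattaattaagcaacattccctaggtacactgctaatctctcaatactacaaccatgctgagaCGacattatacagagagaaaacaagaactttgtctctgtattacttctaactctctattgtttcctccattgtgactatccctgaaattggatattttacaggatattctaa
Vmn2r73: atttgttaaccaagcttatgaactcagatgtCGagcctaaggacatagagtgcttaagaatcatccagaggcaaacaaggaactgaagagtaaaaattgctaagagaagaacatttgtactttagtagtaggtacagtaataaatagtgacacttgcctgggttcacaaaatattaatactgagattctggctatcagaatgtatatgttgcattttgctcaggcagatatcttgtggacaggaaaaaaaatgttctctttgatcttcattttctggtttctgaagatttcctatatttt

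CG occurred at least once in 95.4% of all 21263 promoters, in 97.4% of those inside H3K27me3 and in 89.5% of those inside H3K9me3. The contrast among these sequences is thus one of number: the H3K9me3 set held both the CG-rich Sox2 promoter and the receptor promoters that hardly have a CG, as the counts by promoter below show in full.

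Each mark was measured as bases in islands. H3K27me3 islands covered 288.0 and 276.2 Mb in replicates 1 and 2, and H3K9me3 islands 412.5 and 447.1 Mb. The H3K9me3 libraries lay above both H3K27me3 libraries, at 430 ± 24.5 Mb against 282 ± 8.31 Mb (SD, n = 2 each). The exact two-sided permutation test gave p = 0.333, the smallest that 2 against 2 libraries can give. That held for each of the 8 values per library tested in this way, also after Benjamini-Hochberg adjustment. Of the bases of a library, 76.6% and 79.8% (H3K27me3) and 84.3% and 77.8% (H3K9me3) were also in islands of the other replicate. Bases in islands of both replicates came to 220.5 Mb for H3K27me3 (8.10% of the assembly length used) and 347.8 Mb for H3K9me3 (12.8%), and are what "H3K27me3 bases" and "H3K9me3 bases" mean from here on. The greater extent of H3K9me3 depended on the measure by which islands were kept. Among islands with a ChIP over control fold of at least 2, H3K27me3 and H3K9me3 bases in both replicates came to 132.2 and 138.1 Mb. Among islands with an adjusted p below 1e-10 they came to 174.5 and 321.5 Mb. The 2 marks rarely coincided, with 9.94 Mb in common, which is 4.51% of the H3K27me3 bases and 2.86% of the H3K9me3 bases.

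ChIP reads in islands numbered 10617002 and 10050522 for H3K27me3 and 9319200 and 13378883 for H3K9me3. Where islands of different libraries had the same start and end, 2313 cases over the 6 pairs of libraries, their control counts were equal in all of them, so the 4 lists were called against the same control reads. The fold of an island is the authors' value, the ratio of ChIP to control reads times 1 constant per file: 2.10 and 2.14 for H3K27me3, 2.97 and 2.17 for H3K9me3. Median folds lay close together, at 2.02 and 2.03 for H3K27me3 and 2.14 and 2.09 for H3K9me3 (exact permutation p = 0.333). The order turned when total reads were used in place of the median island, with folds of 2.16 and 2.16 against 2.11 and 2.05. Control reads per kb inside islands were 35.98 and 36.1 for H3K27me3 and 31.9 and 31.7 for H3K9me3, and their part in the results below was not tested.

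The labelled cell type and marks were checked against their genes, with a gene called covered where at least 50% of its length lay in a mark's bases. H3K27me3 covered 2454 of 21887 protein-coding genes (11.2%) and H3K9me3 covered 1079 (4.93%). Just above the threshold, at 50% to 55%, were 209 and 70 genes, and just below, at 45% to 50%, 206 and 76. Neither mark covered any of 26 fibroblast identity genes. Col1a1, Col1a2, Vim, Thy1 and Twist1, which encode type I collagen, vimentin, a surface antigen and a mesenchymal factor, had 0% of their length in islands of any of the 4 libraries. At least 1 H3K9me3 base lay in 11 of the 26, against 4643 of all 21887 genes. Their mean H3K9me3 cover was 5.46% against 6.30% over all genes, and their mean H3K27me3 cover 0.279% against 11.6%. Twist2, a relative of Twist1 on the list, touched H3K9me3 islands in both replicates (folds 4.02 and 5.22). The highest values of these 26 were 7.24% under H3K27me3 in Fap, a surface protease, and 28.3% under H3K9me3 in Ddr2, a collagen receptor. Ddr2 had 30.3% and 53.1% of its length in H3K9me3 islands in replicates 1 and 2. Of 39 Hox genes, the textbook targets of Polycomb, 24 were covered by H3K27me3. Of 394 genes named Zfp, most of them C2H2 zinc-finger repressors, 104 were covered by H3K9me3. Replicate 2 of H3K9me3 alone reached 50% in 2 of the fibroblast genes, Ddr2 and Lum, a proteoglycan.

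The marks differed in the shape of their islands. The median H3K27me3 island was 4.2 and 4.0 kb long in the 2 replicates, and the median H3K9me3 island 10.4 and 9.6 kb, a ratio of 2.44 between the means. Islands of 10 kb or more held 42.7% and 40.4% of the H3K27me3 island bases but 85.1% and 83.7% of the H3K9me3 island bases. Islands of 100 kb or more held 0.383% and 0.254% against 13.1% and 14.96%. There were 8 and 6 such islands of H3K27me3, and 328 and 396 of H3K9me3. The longest island spanned 197.6 and 150.2 kb for H3K27me3 and 754.0 and 707.6 kb for H3K9me3. In each of these measures the libraries of the 2 marks did not overlap (exact permutation p = 0.333 for the median and for both shares). Joining islands over gaps of up to 5 kb brought the difference in the share of bases in islands of 10 kb or more from -42.9 to -4.12 percentage points, while that at 100 kb or more was -13.7 and -14.7.

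Fold varied with length differently in the 2 marks. Among H3K9me3 islands of up to 2 kb the median fold was 3.85 and 3.55, it was 3.03 and 2.84 at 2 to 5 kb, and it was 1.85 and 1.81 at 20 to 50 kb. Among H3K27me3 islands the median fold was 2.14 and 2.14 up to 2 kb, so there too the shortest islands lay above the next class, at 1.92 and 1.92. It was 2.03 and 2.05 at 5 to 10 kb, 2.22 and 2.23 at 10 to 20 kb, and 2.58 and 2.57 at 50 to 100 kb. Islands over 100 kb had folds of 2.68 and 3.33 for H3K27me3, from 8 and 6 islands, and of 2.03 and 1.96 for H3K9me3. The lowest class median was thus at 20 to 50 kb in H3K9me3 and at 2 to 5 kb in H3K27me3. Control reads moved with length in H3K9me3, from 47.9 and 44.8 per kb in islands of up to 2 kb to 30.3 and 30.1 per kb at 20 to 50 kb. In H3K27me3 they were 37.8 and 37.6 per kb up to 2 kb, 34.7 and 34.8 at 2 to 5 kb, 37.5 and 37.8 at 20 to 50 kb, and 40.2 and 40.4 at 50 to 100 kb, so that the control depth rose with the fold from 2 to 100 kb. An island must pass a p-value against the control, so a short island needs a higher fold than a long one to be listed, and the part of that threshold in these values was not tested.

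**Figure D1:**
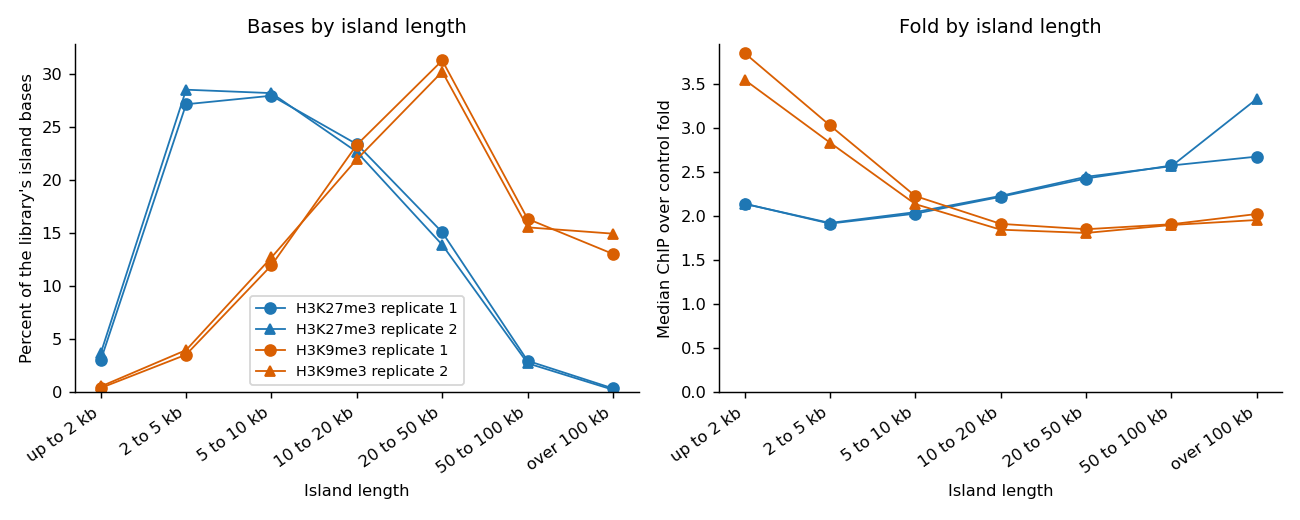
Island length (classes, horizontal axes) against the percent of a library's island bases in each class (left) and the median ChIP over control fold of its islands (right), as the authors give the fold. Each line is 1 library. H3K9me3 (orange) has most bases at 10 kb and more, with the highest folds in the shortest islands; the fold of H3K27me3 islands (blue) is lowest at 2 to 5 kb.

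Of the 5 longest H3K27me3 stretches, 3 held developmental factors, of the Hox and Pax families. The longest, 150.2 kb on chromosome 17, touched Ermard (folds 2.29 and 2.25). The next, 118.6 kb at chr15:102894601-103013200, held Hoxc13, Hoxc12, Hoxc11, Hoxc10, Hoxc9, Hoxc8 and Hoxc6, with folds of 3.64 and 3.84. The island there had 11281 ChIP and 6523 control reads in replicate 1 and 6989 and 3902 in replicate 2. Stretches of 115.6 kb over Pax3 and 93.8 kb over Pax2, paired-box factors of the neural crest and the kidney, had folds of 3.11 and 3.13, and of 3.49 and 3.27. The fifth, 87.8 kb on chromosome 16, held Zdhhc19 (2.55 and 2.50). Among stretches of 10 kb or more, the 5 with the highest mean fold lay at Tbx5 (4.78 and 4.86), Onecut3 (5.00 and 4.31), Lhx5 (4.79 and 4.36), Uncx (3.78 and 5.26) and at 7 genes from Hoxb9 to Hoxb3 (4.45 and 4.47). Each of these 5 holds developmental transcription factors, of the T-box, cut-homeobox, LIM-homeobox and other homeobox kinds.

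The longest H3K9me3 stretches lay at very long genes. The longest, 627.6 kb on chromosome 6, overlapped Grm7, a metabotropic glutamate receptor (folds 1.98 and 1.96, from 14083 ChIP against 21101 control reads in replicate 1 and 17747 against 19653 in replicate 2). Stretches of 544.0 kb in Cdh13, a cadherin, 515.6 kb in Ptprd, a receptor phosphatase of neurons, and 442.4 kb in Tmem132d had folds of 2.57 and 2.50, 1.72 and 1.73, and 2.85 and 2.86. A further 453.6 kb on chromosome 2 held no protein-coding gene (3.39 and 3.42). The highest folds among stretches of 10 kb or more were at Zfp12 and Zfp316 (8.74 and 8.63, over 30 kb), Zfp382 and Zfp146 (8.04 and 7.69, 43.2 kb), and Blcap with Nnat (7.86 and 7.56, 11.2 kb). The other 2 were 13.6 kb at the unnamed locus LOC108167368 on chromosome 12 (10.7 and 5.49, with 362 ChIP reads in the island of replicate 1 and 3943 in the longer one of replicate 2) and 24.8 kb with no gene (7.47 and 7.19).

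The marks lay at opposite ends of gene density. In 1 Mb windows of the autosomes and X with no protein-coding gene, 1.01% and 0.937% of the bases were in H3K27me3 islands and 33.8% and 35.8% in H3K9me3 islands. With 1 to 4 genes the values were 5.74% and 5.44% against 18.5% and 20.2%. At 5 to 9 genes they were 13.05% and 12.5% against 9.73% and 10.6%, and the order of the marks had turned. Windows with 20 or more genes had 19.6% and 18.96% against 10.1% and 11.02%. The libraries of the 2 marks did not overlap in any of the 5 classes (331, 885, 647, 501 and 277 windows). Windows are not replicates, and no test was made over them. Of the H3K27me3 bases 40.01% lay in protein-coding genes, and of the H3K9me3 bases 23.9%, where such genes hold 37.9% of the assembly.

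**Figure D2:**
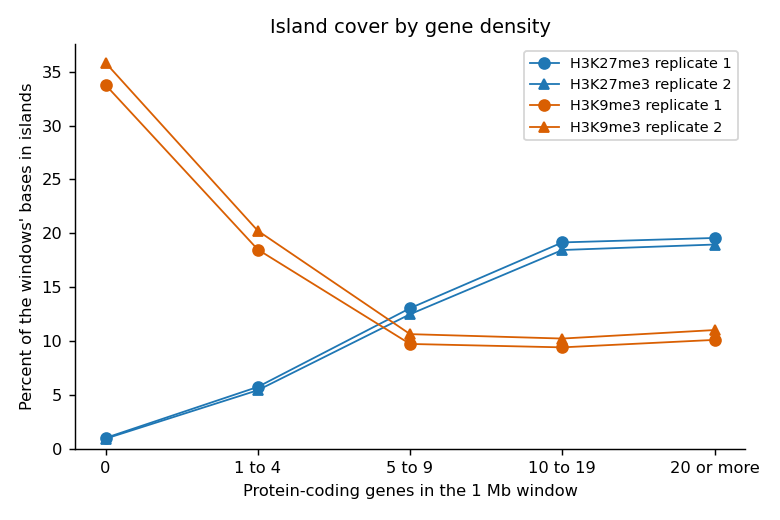
Percent of the bases in islands (vertical axis) in 1 Mb windows grouped by their number of protein-coding genes (horizontal axis), 1 line per library. H3K27me3 (blue) goes from 1.01% and 0.937% in windows without a gene to 19.6% and 18.96% in windows with 20 or more, and H3K9me3 (orange) from 33.8% and 35.8% to 10.1% and 11.02%.

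Chromosomes differed in which mark they carried. Chromosome 19 had the most H3K27me3, with 22.3% and 21.6% of its length in islands, and chromosome 11 followed with 18.98% and 18.4%. H3K9me3 covered 14.6% and 15.3% of chromosome 19 and 9.62% and 10.7% of chromosome 11. Chromosomes 6 and 17 led in H3K9me3, at 27.7% and 29.2%, and 27.5% and 29.1%. Chromosome 9 had 8.71% and 8.10% in H3K27me3 islands and 6.04% and 6.98% in H3K9me3 islands, so that chromosomes 9, 11 and 19 were the ones with more bases under H3K27me3 than under H3K9me3. Chromosome 12 had the greatest surplus of H3K9me3, with 23.7% and 25.2% against 8.67% and 8.32%. Chromosome X was nearly bare: 0.399% and 0.357% under H3K27me3 and 0.771% and 0.848% under H3K9me3, so that none of its libraries reached 1%.

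The shares were then divided by each library's share of the whole genome and fitted over 19 autosomes and X with limma, with Benjamini-Hochberg adjustment. In this relative measure 8 chromosomes (40% of those tested) were higher in H3K27me3 and 10 (50%) in H3K9me3 at an adjusted p below 0.05, together 90%. The differences on the log2 scale were 1.49 for chromosome 11 (SE 0.0175, adjusted p = 4.87e-06), 1.16 for chromosome 19 (SE 0.0214, 9.01e-06) and 0.98 for chromosome 9 (SE 0.0387, 6.89e-05). Towards H3K9me3 they were -0.92 for chromosome 12 (SE 0.0152, 8.95e-06), -0.72 for chromosome 3 (SE 0.0152, 1.14e-05), -0.50 for X (SE 0.0394, 0.000638) and -0.48 for chromosome 10 (SE 0.0162, 4.43e-05). Chromosomes 2, 4, 7, 16 and 18 were also called higher in H3K27me3, by 0.37, 0.09, 0.13, 0.24 and 0.12, and chromosomes 1, 5, 6, 8, 15 and 17 in H3K9me3, by 0.09 to 0.23 in size. Chromosomes 13 and 14 did not pass (adjusted p = 0.299 and 0.0923). Without the division 3 chromosomes, 9, 11 and 19, were higher in H3K27me3 and 17 in H3K9me3, so 2, 4, 7, 16 and 18 changed direction with the scaling. Calls were lost without 1 library on chromosomes 4 (limma adjusted p = 0.101 without either H3K27me3 library), 15 (0.116 and 0.0986), 17 (0.0521 without H3K9me3 replicate 1) and 18 (0.0513 without H3K27me3 replicate 1, and 0.0579 with the replicate number as a block). With islands of a fold of at least 2, chromosome 6 turned towards H3K27me3 and 16 and 18 towards H3K9me3 (limma adjusted p = 0.00657, 0.00657 and 0.0144). Chromosomes 1, 8, 7 and 15 lost their calls there (0.293, 0.111, 0.704 and 0.131), 1 and 8 with a change of sign. A chromosome named as higher here is thus higher relative to its library's genome-wide share.

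Some chromosomes were low in both marks. Besides X, chromosomes 9, 13, 14, 16 and 18 had 4.65% to 8.71% in H3K27me3 islands and 6.04% to 9.43% in H3K9me3 islands. Chromosomes 3 and 12 were as low in H3K27me3 (8.10% to 8.67%) but not in H3K9me3 (19.7% to 25.2%). Control reads per kb of H3K27me3 replicate 1 islands were 20.5 on X, 28.9, 27.1, 28.1 and 27.9 on chromosomes 9, 13, 14 and 18, and 34.1 on 16, against 32.998 to 41.9 on the other autosomes. Over the 19 autosomes the percent covered and the control reads per kb had a Spearman rho of 0.854 and 0.872 in the H3K27me3 libraries and of 0.526 and 0.519 in the H3K9me3 libraries (Pearson r = 0.832, 0.840, 0.536 and 0.540), with all points from 1 control library. The part of the control depth in a chromosome's share was not tested. The difference between the marks had a rho of -0.20 with the same control depth and of 0.518 with genes per Mb (r = -0.04 and 0.638). Chromosomes 11, 19 and 7 have 13.2, 11.5 and 13.97 genes per Mb, and chromosome 12 has 5.66.

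**Figure D3:**
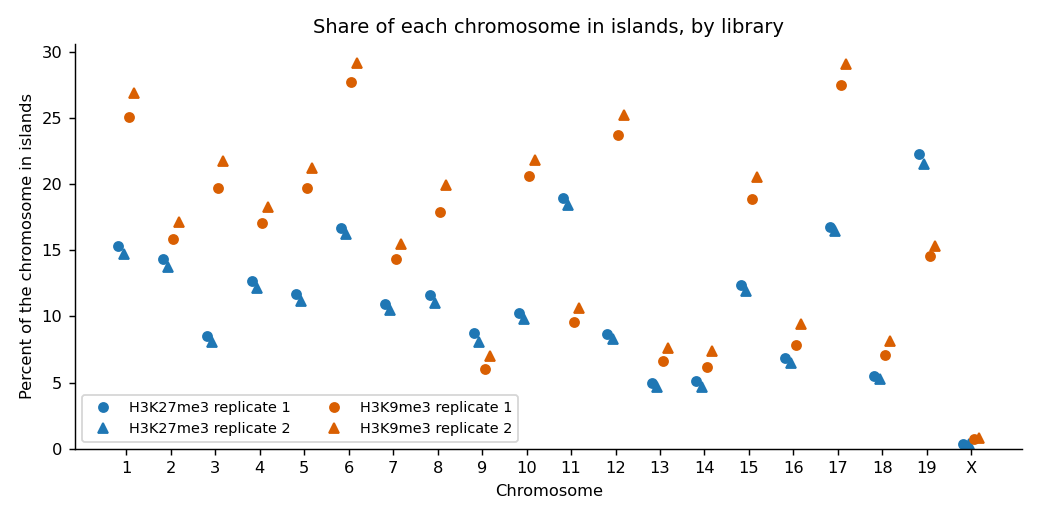
Percent of each chromosome's length in islands (vertical axis), 1 point per library, H3K27me3 in blue and H3K9me3 in orange. Chromosomes 9, 11 and 19 have the blue points above the orange ones, and on X all 4 points lie below 1%.

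Gene families differed in the mark that covered them. They were described by the number of members covered, beside 11.2% of all genes for H3K27me3 and 4.93% for H3K9me3, with no test of a family. Covered genes had a median length of 13.6 kb under H3K27me3 and 4.13 kb under H3K9me3, against 17.2 kb over all genes. Family medians ran from 0.491 kb (replication-dependent histones) to 213 kb (GABA and glutamate receptors). The part of gene length in the counts was not tested. Of 272 homeobox, forkhead, Sox, T-box and helix-loop-helix genes, 127 were covered by H3K27me3 and 38 by H3K9me3. All 10 Hoxb and all 9 Hoxc genes were covered by it, with 99.5% and 99.4% of their length on average, and 0 of either cluster by H3K9me3. In the Hoxa cluster 3 of 11 genes were covered by H3K27me3 and 2 by H3K9me3, and in the Hoxd cluster 2 of 9 and 0. Hoxa11 and Hoxa10 had 100% of their length in H3K27me3 bases, Hoxa9 55.5%, Hoxd10 92.6% and Hoxd13 53.3%. Hoxa13, the last gene of its cluster, had 17.2% in H3K27me3 bases and 100% in H3K9me3 bases. Hoxb8 lay in an island of 88.6 kb with 5774 ChIP and 2727 control reads in replicate 1 and of 101.2 kb with 6433 and 3081 in replicate 2. The Hoxb and Hoxc genes were thus covered nearly throughout, and the Hoxa and Hoxd genes in part.

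Homeobox genes outside the clusters followed, with 60 of 116 covered by H3K27me3 and 16 by H3K9me3. Pax3, a neural crest factor, Lhx2, a forebrain factor, and Emx1, a cortical factor, had 100% of their length in both H3K27me3 libraries. Basic helix-loop-helix genes, the selectors of neurons, muscle and blood, had 22 of 38 covered by H3K27me3. Tal1, of blood, and Nhlh2 and Nhlh1, of neurons, were at 100% in both libraries and at 0% in both H3K9me3 libraries, and so was Myod1, the muscle selector. T-box genes had 7 of 16 under H3K27me3 and 0 under H3K9me3: T, the mesoderm factor brachyury, had 100%, Tbx21, the factor of type 1 helper T cells, 95.4%, and Tbx19, a pituitary factor, 93.03%. Of 6 Gata genes only Gata5 was covered (80.8%), while Gata4 had 30.5% and Gata3 17.98%. Signals of development had the same bias. Wnt ligands had 11 of 19 covered by H3K27me3 and Fgf ligands 8 of 22, and neither had a member covered by H3K9me3. Wnt8b and Wnt1, and Fgf23, Fgf6 and Fgf8, were at 100% in both H3K27me3 libraries, and Wnt3a at 100% and 98.1%.

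Among families of excitable cells, potassium channels had 36 of 93 covered by it and 3 by H3K9me3, with Kcng4, Kcna1 and Kcnk4 at 100% in both libraries. Calcium channels had 10 of 26 and 0, led by Cacna1s of skeletal muscle (98.5% and 96.1%), Cacna2d4 (94.8% and 94.8%) and Cacng2 (92.5% and 91.97%). GABA and glutamate receptors had 6 of 43 and 4. Epithelial keratins, intermediate filaments that fibroblasts replace by vimentin, had 33 of 49 covered by H3K27me3 and 0 by H3K9me3, in both of their clusters: 17 of 25 on chromosome 11 and 16 of 24 on chromosome 15. Krt77, Krt90 and Krt75 were at 100% in both H3K27me3 libraries. Solute carriers, membrane transporters, had 66 of 346 and 5, and cytochrome P450 genes 17 of 93 and 2. Collagens had 6 of 44 and 0, integrins 3 of 31 and 0, cadherins 4 of 23 and 3, and serpins 1 of 63 and 1. The collagens had a median length of 114 kb. At least 1 base of H3K27me3 lay in 21 of these 44, and of H3K9me3 in 22, against 5293 and 4643 of all 21887 genes.

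Families of the immune system differed. Of 23 T cell identity genes 13 were covered by H3K27me3 and 0 by H3K9me3. Cd4, the co-receptor, and Ptcra, the pre-T cell receptor chain, had 100% of their length in islands in both H3K27me3 libraries. Cd3g had 97.9% and 96.05%, Rag1, of the recombinase, 92.9% and 100%, and Cd3e, a receptor subunit, 90.85% and 89.02%. The factors Tcf7, which encodes Tcf-1 itself, Gata3 and Bcl11b had lower values, 20.1%, 17.98% and 11.04%, and Lef1, the relative of Tcf7, had 0.0912%. Cd4 lay in an island of 41.4 kb with 2336 ChIP and 1526 control reads in replicate 1 (fold 3.22) and of 40.4 kb with 2173 and 1499 in replicate 2 (3.10). Type 1 interferons had 11 of 13 Ifna genes covered by H3K27me3, and the remaining Ifna13 was covered by H3K9me3 and Ifna16 had 44.9% in H3K27me3 bases. Gimap genes, GTPases of lymphocytes, had 5 of 8, Schlafen genes 4 of 8, CD antigens 20 of 78 and MHC genes 12 of 38. Toll-like receptors, sensors of microbes, had 3 of 12. Near or below the share of all genes were chemokines (4 of 37), their receptors (2 of 18), Ly6 genes (2 of 14) and NK cell lectin receptors (2 of 37, with 1 under H3K9me3). H2-Eb1 and H2-DMb2, of the class II pathway, and H2-Q1 had 100% in both H3K27me3 libraries. MHC islands also had the highest control depth of these families, 56.8 and 55.7 reads per kb, and its part was not tested.

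H3K9me3 covered other families. Clustered protocadherins, neuronal adhesion genes in clusters on chromosome 18 with a median length of 90.3 kb, had 25 of 57 covered by H3K9me3 and 0 by H3K27me3. Only 5 and 6 islands in replicates 1 and 2 touched these 25 genes, so their members are not separate observations. Pcdhb16, Pcdhb18 and Pcdhb19 had 100% of their length in both H3K9me3 libraries, within an island of 111.2 kb in each (5307 ChIP and 2682 control reads in replicate 1, 6999 and 2682 in replicate 2). Zfp genes had 104 of 394 under H3K9me3 and 10 under H3K27me3. Zfp982, Zfp985 and Zfp990, all on chromosome 4, were at 100% and 0%. By chromosome, 17 of 45 Zfp genes on chromosome 17, 13 of 37 on 13, 9 of 25 on 8, 9 of 27 on 4 and 22 of 93 on 7 were covered, but 0 of 17 on 6 and 0 of 11 on 15. Related zinc-finger genes with a SCAN domain, Zscan and Zkscan, had 0 of 27 covered by either mark, where 4.93% of all genes were covered by H3K9me3. They were not free of it: 8 of the 27 had at least 1 H3K9me3 base, against 4643 of all 21887 genes. Their mean H3K9me3 cover was 9.67%, against 6.30% over all genes. The differences between chromosomes were not tested.

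Chemosensory receptors were the largest group under H3K9me3. Olfactory receptors had 266 of 1106 covered by H3K9me3 and 63 by H3K27me3, type 2 vomeronasal receptors 37 of 123 and 0, type 1 vomeronasal receptors 24 of 230 and 2, and bitter taste receptors 15 of 35 and 3. Formyl peptide receptors had 3 of 7 and 1. Trace amine receptors were the exception, with 6 of 15 under H3K27me3 and 0 under H3K9me3, and Taar9, Taar4 and Taar5 at 100% in both H3K27me3 libraries. The olfactory receptors also split by chromosome. On chromosome 2, 142 of 286 were covered by H3K9me3 and 0 by H3K27me3. On chromosome 11, 1 of 83 was covered by H3K9me3 and 18 by H3K27me3, on chromosome 4, 0 and 9 of 24, and on chromosome 15, 0 and 7 of 9. On chromosome 9, 4 and 0 of 129 were covered. Sulfotransferases (7 of 21), UDP glucuronosyltransferases (6 of 21) and secretoglobins (6 of 37), whose products conjugate or carry small molecules, were also covered mostly by H3K9me3. Many of these families hold near-identical copies. The placement of reads with several matches was not given in the sources used here, so single members of the Zfp, receptor, interferon and small proline-rich families are uncertain.

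Genes that most cells use were rarely covered by either mark. The listed NADH dehydrogenase genes (46, subunits and assembly factors), mitochondrial ribosomal proteins (75) and replication-dependent histones (62) had 0 covered by either. That NADH dehydrogenase list is not complete. The 13 genes named Ndufb had a mean of 7.69% of their length in islands in each H3K27me3 library. Of 81 cytosolic ribosomal protein genes, Rpl3l was covered by H3K27me3 (71.8%), and Rpl10l (100%) and Rpl39l (70.2%) by H3K9me3, all of them relatives of the common ribosomal genes with a tissue-restricted use. Among 48 proteasome genes the covered one was Psmb9 (90.002% under H3K27me3), a subunit of the immunoproteasome. Rhox genes, all 31 on X, and Mage genes, 19 of 21 on X, also had 0 covered. Islands of both marks were rare on that chromosome.

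**Figure D4:**
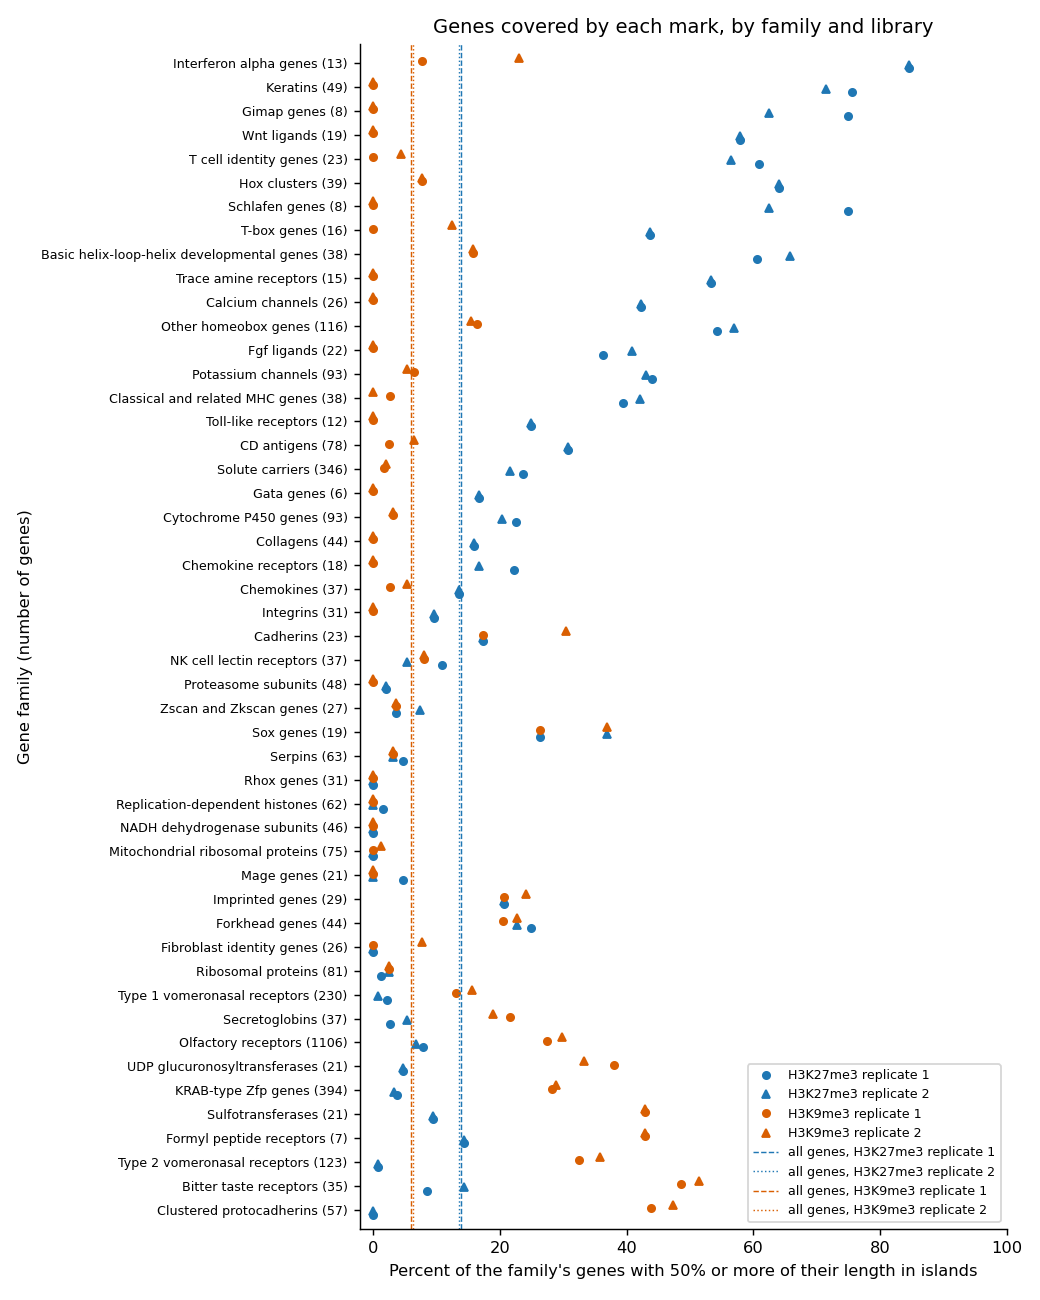
Percent of each family's genes with at least 50% of their length in islands (horizontal axis), 1 point per library, for the families far from the share of all genes in at least 1 mark. Dashed (replicate 1) and dotted (replicate 2) lines give the share of all genes in the same library, 13.9% and 13.6% for H3K27me3 (blue) and 5.93% and 6.39% for H3K9me3 (orange). Interferon alpha, keratin, Wnt and Hox genes lie far to the right in blue, clustered protocadherins and bitter taste receptors in orange, and Sox genes to the right of the lines in both.

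In the Sox, forkhead and imprinted families the 2 marks covered equal numbers of members, though H3K27me3 covered 11.2% of all genes and H3K9me3 4.93%. Against those shares H3K9me3 was the more frequent mark in all of them. It stood at 5.34 times its share in Sox, 4.15 in forkhead and 3.50 in imprinted genes. H3K27me3 stood at 2.35, 1.82 and 1.54 times its own. Of 19 Sox genes, 5 were covered by H3K27me3 and 5 by H3K9me3, with 0 by both. Over all genes 47 of 21887 (0.215%) were covered by both, and the overlap within a family was not tested. Sox14, Sox18 and Sox8 had 100% under H3K27me3, Sox10, of the neural crest, 88.6% and Sox13 77.8%. Sox11 and Sox21 had 100%, Sox2 97.5%, Sox17, of endoderm, 89.6% and Sox1 81.3% under H3K9me3. Sox2 and Sox1 are markers of neural progenitors. Forkhead genes had 9 of 44 under each mark, with Foxd4 under both. Foxf1, Foxb1 and Foxi3 had 100% under H3K27me3, and Foxd3, Foxe1 and Foxe3 100% under H3K9me3, with Foxa1, of endoderm, at 81.5%. Sox2 lay in an H3K9me3 island of 4.0 kb with 262 ChIP and 134 control reads in replicate 1 (fold 5.81) and of 6.0 kb with 416 and 190 in replicate 2 (4.76). Foxd3 lay in islands with folds of 3.57 and 4.52. Such folds were above the medians of that mark, 2.14 and 2.09, but not in every case: Sox11 lay in broad islands of 51.2 and 116.8 kb with folds of 1.96 and 1.82, Sox17 had folds of 1.79 and 1.62 and Foxe3 1.48 and 1.78.

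Imprinted genes, which are expressed from 1 parental allele in some tissues, had 5 of 29 under each mark and 0 under both. At least 1 base of H3K27me3 lay in 12 of the 29, and at least 1 base of H3K9me3 in 20, against 5293 and 4643 of all 21887 genes. H3K9me3 covered Nnat, Nap1l5 and Dio3 at 100% in both libraries, Mest at 91.5% and Cdkn1c at 83.02%. H3K27me3 covered Phlda2 (90.9%), Slc22a3 (88.4%), Ins2 (86.46%), Slc22a2 (86.5%) and Sgce (50.6%). Nnat lay in H3K9me3 islands of 11.2 and 11.6 kb with 1237 ChIP and 468 control reads in replicate 1 and 1683 and 484 in replicate 2. Peg10, covered over 17.4% of its length, had islands of 3.6 kb in both replicates with folds of 8.92 and 8.69.

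Islands at covered genes differed by family in length and fold. At the 104 Zfp genes the H3K9me3 islands had a median length of 27.8 and 30.4 kb and a median fold of 4.21 and 4.11. At the 25 protocadherins they were 38.4 and 24.8 kb and 4.56 and 3.78, from 5 and 6 islands. Olfactory receptor islands were as long, 27.2 and 24.8 kb, at folds of 2.01 and 1.96, and those of type 2 vomeronasal receptors were 43.2 kb in both replicates at 2.12 and 2.18. At Sox genes the H3K9me3 islands were 6.4 and 6.0 kb with folds of 4.01 and 4.76, at forkhead genes 6.0 and 5.6 kb with 3.57 and 4.02, and at imprinted genes 11.2 and 11.6 kb with 5.61 and 4.51. The Sox and imprinted medians rest on 5 islands per library and the forkhead medians on 9. By these family medians, H3K9me3 islands were long with high folds at Zfp and protocadherin genes, and long with lower folds at the receptors. They were shorter with high folds at Sox, forkhead and imprinted genes. Single members departed from their family's median, as Sox11, Sox17 and Foxe3 did above. Under H3K27me3, islands at covered Hox genes measured 33.7 and 19.2 kb with folds of 3.48 and 3.38, those at other homeobox genes 12.4 and 9.2 kb with 2.84 and 2.80, at keratins 13.8 and 7.8 kb with 2.26 and 2.21, and at T cell genes 7.6 and 8.0 kb with 2.06 and 1.97. The Hox medians rest on 8 and 10 islands. ChIP reads per kb of H3K27me3 islands were 59.1 and 60.4 at Hox genes and 39.96 and 38.8 at T cell genes, and control reads per kb 32.9 and 32.6, and 37.7 and 37.4.

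A fit over all gene names used no choice of families. Genes were grouped by the letters of the symbol before its first digit, and the mean percent of gene length in islands was compared for the 274 such stems with at least 10 genes and any cover (limma, Benjamini-Hochberg adjustment). H3K27me3 was higher in 171 stems (62.4%) and H3K9me3 in 53 (19.3%) at an adjusted p below 0.05, together 81.8% of the stems. Since genes as a whole had more H3K27me3 (14.1% and 13.7% of gene length on average, against 7.51% and 8.12%), the fit was repeated relative to the mean over all genes, which gave 126 and 94. The 10 stems with the greatest difference towards H3K27me3 were Hoxb, Lcn, Krt, Taar, Gdf, Lypd, Ces, Mroh, Myl and Scn, and towards H3K9me3 Sprr, Pcdhb, Esp, Pcdhga, Fzd, Lce, Speer, Atf, Pcdh and Klra. Hoxb genes had 99.5% and 100% of their length in H3K27me3 islands and 0% in both H3K9me3 libraries (log2 difference 6.65, SE 0.0688, adjusted p = 5.04e-05). Sprr genes, which encode small proline-rich proteins of the epidermal envelope, had 76.4% and 78.4% in H3K9me3 islands and 0% in both H3K27me3 libraries (log2 difference -6.29, SE 0.0691, adjusted p = 5.04e-05). Where 1 mark is at 0% the size of the difference rests on the pseudocount of 1 percentage point.

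The stems placed neighbours in function under different marks. Lipocalins (Lcn), a cluster on chromosome 2, had 91.4% and 87.03% of their length in H3K27me3 islands and 0% in H3K9me3 islands. Keratins (Krt) had 69.3% and 67.2% against 0% and 0.0989%. Late cornified envelope genes (Lce), which with Sprr and the keratins build the outer skin, had 0% in both H3K27me3 libraries and 23.5% and 39.7% in H3K9me3 islands. Frizzled genes (Fzd), the receptors of Wnt ligands, had 0% in H3K27me3 islands and 32.6% and 34.2% in H3K9me3 islands, while 11 of 19 Wnt ligands were covered by H3K27me3. The covered receptors were Fzd10 (100%), Fzd1 (76.8%), Fzd9 (68.6%) and Fzd8 (59.8%), named after their values were seen. Esp genes, secreted pheromone peptides on chromosome 17, had 60.7% and 58.8% under H3K9me3. Sodium channels (Scn) and myosin light chains (Myl) were higher in H3K27me3 by 3.94 (SE 0.481, adjusted p = 0.00422) and 4.08 (SE 0.765, 0.0135) on the log2 scale, and both lost the call without either H3K27me3 library (adjusted p = 0.0818 and 0.0849 for Scn, 0.14 and 0.15 for Myl), as did Lypd (0.0647 and 0.061).

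Some genes lay under both marks. The 9.94 Mb in common fell into 4107 stretches with a median of 1.8 kb and a longest of 27.6 kb. At the threshold of 50%, 47 genes were covered by both (0.215% of all), and 10 of these were among those 272 developmental factor genes (3.68%). They were Hoxa10, Lhx1, Lbx1, Tlx2, Gsx1, En2, Nkx1-1, Foxd4, Bhlhe22 and Ascl4. Of the 272 genes, 127 were covered by H3K27me3, 38 by H3K9me3 and 155 by either mark. Each mark by itself was thus also more frequent there than over all genes (11.2% and 4.93%). An overlap beyond what these shares give was not tested. Gsc, a homeobox gene of the early embryo that the family lists do not hold, was also under both (98.2% H3K27me3 and 100% H3K9me3), so the lists are not complete. Lbx1, a factor of migrating muscle precursors, lay in an H3K27me3 island of 95.4 kb in replicate 1 and 64 kb in replicate 2 (folds 3.40 and 3.30), and in H3K9me3 islands of 6.0 and 7.2 kb (3.67 and 3.53). Tlx2, of the enteric nervous system, had H3K27me3 islands of 5.6 and 8.0 kb (2.50 and 2.34) and H3K9me3 islands of 3.2 and 4.0 kb (3.50 and 3.30). At both genes the H3K9me3 islands were the shorter ones. These libraries are pools of cells, so the 2 marks on the same copy of a gene and on copies of different cells cannot be told apart.

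Promoters under the marks had fewer CpG than promoters in general. RefSeq promoters were at hand for 17492 of 21887 genes. Those of chromosome 18, and so of all clustered protocadherins, were not used here. Of 21263 promoter windows, 2364 lay wholly in H3K27me3 bases (11.1%) and 1212 in H3K9me3 bases (5.7%). The median number of CG per window was 13 in all promoters, 7 under H3K27me3 and 8 under H3K9me3. The ratio of observed to expected CG had a median of 0.567, 0.344 and 0.402. In each library the medians were 0.337 and 0.337 (H3K27me3) and 0.370 and 0.357 (H3K9me3), all below that of all promoters. At or above a ratio of 0.6, as in CpG islands, were 47.7% of all promoters, 26.9% under H3K27me3 and 37.5% under H3K9me3. The H3K9me3 promoters were the more spread: 10.5% had no CG, against 2.58% under H3K27me3 and 4.63% of all, and their quartiles were 1 and 23, against 3 and 17.

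Families differed in the CG of their promoters. Promoters of olfactory receptors inside H3K9me3 (174 of 944) had a median of 1 CG, as in the Olfr124 sequence above, and so did those of type 2 vomeronasal receptors (28 of 117). Promoters of the developmental factor families inside H3K9me3 (35 of 217) had a median of 25 CG, and 88.6% of them reached the ratio of 0.6. Those inside H3K27me3 (84) had a median of 16 and 53.6%, and the families as a whole a median of 17. Sox promoters inside H3K9me3 (5 of 18) had a median of 27, the number in the Sox2 sequence above, and Wnt promoters inside H3K27me3 (9 of 18) a median of 29. Keratin promoters inside H3K27me3 (19 of 36) had 5, Zfp promoters inside H3K9me3 (35 of 399) 9, and T cell gene promoters inside H3K27me3 (13 of 24) 7. Thus CG-rich promoters of developmental factors were found under both marks, and CG-poor ones under H3K27me3 in keratin and T cell genes and under H3K9me3 in receptor genes.

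**Figure D5:**
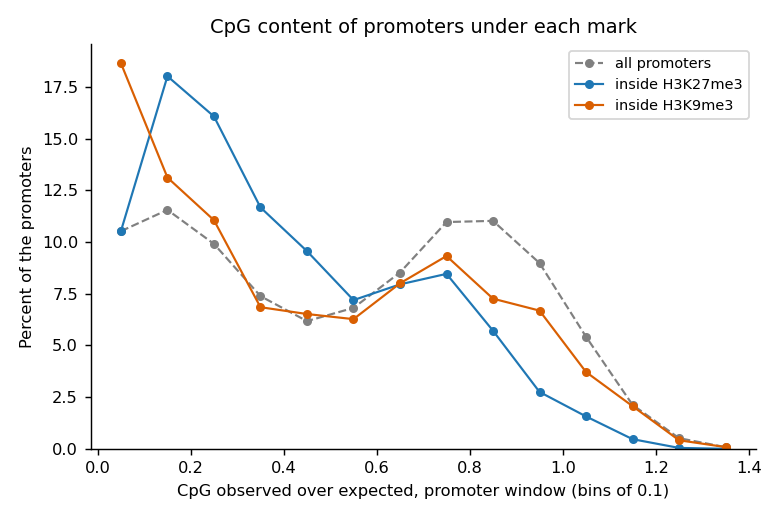
Distribution of the observed over expected CG ratio (horizontal axis, bins of 0.1) of all promoter windows (grey, dashed), those inside H3K27me3 (blue) and those inside H3K9me3 (orange), as percent of the promoters of each set (vertical axis). The medians are 0.567, 0.344 and 0.402, the H3K9me3 set has the greatest share in the lowest bin, and all 3 sets rise again above 0.6.

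Open chromatin was rarer under both marks than elsewhere. In the Empty RV libraries 1 to 4, with 22778, 34601, 46819 and 58026 peaks, ATAC-seq peaks per Mb numbered 0.504, 1.68, 4.27 and 7.30 in H3K27me3 bases and 3.60, 5.40, 7.27 and 9.73 in H3K9me3 bases. Outside both marks they numbered 9.90, 14.96, 20.05 and 24.5 per Mb. Every library had fewer peaks per Mb in H3K27me3 than in H3K9me3 bases, by a mean log2 ratio of -1.43 ± 1.08 (SD, n = 4; exact two-sided sign-flip permutation p = 0.125, the smallest that 4 libraries can give). The ratio of H3K9me3 to H3K27me3 was 7.15 in the library with the fewest peaks, 3.21 and 1.70 in the next, and 1.33 in that with the most. The number of peaks called thus moved with the ratio, and its part was not tested.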

How the data were processed

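The 4 histone libraries were deposited by the authors as SICER island lists, 1 per library. Per the submitters' processing notes, Bowtie2 2.2.9, Picard, MACS2 and Trim Galore were among the tools, and GRCm38 and mm10, names of the same build, among the builds. The tool behind each file and the handling of reads with several matches were not given in the sources used here. Each deposited island has a ChIP count and a control count, a p-value, an adjusted p-value (none above 0.00997) and the authors' ratio (fold) of ChIP over control. Counts exist only inside each library's own islands, so no count model over common features could be used. ATAC-seq files were deposited as peak positions.

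Islands were placed on their 200 bp grid. Chromosome length was the last position reached by an island, peak or gene, since no genome was at hand. Gene positions and promoters came from RefSeq (GRCm38.p6). Fits used limma 3.58.1 (lmFit, eBayes) in R 4.3.3, over 20 chromosomes and, with a pseudocount of 1 percentage point, 274 name stems. The fits were also run on simulated data with independent noise and a minority of features shifted, towards H3K27me3 only. There 100% and 77.7% of log2 shifts of 1 were called, and 1.88% and 1.00% of features without a shift (Python 3.11.15). The real fits called 90% and 81.8% of features, in both directions, so these rates need not hold for the real calls. Of the families, those with a share at least 2 times or at most 0.5 times that of all genes in either mark were described, with names mostly from the 3 members with the highest cover of the leading mark, and a few further families were counted beside them. Also named were the 10 stems with the greatest difference in each direction, the 5 longest and 5 highest-fold stretches of each mark, and all chromosomes. Other genes were named after their values were seen. The members and lists were chosen with earlier results of these data known. Alternatives were other island thresholds, gene rules, window sizes, pseudocounts, replicate blocks and leaving out each library.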

Additional observations from a re-analysis of the deposited data

How the results depend on the processing

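Covered bases moved with the islands kept, for H3K27me3, H3K9me3 and both marks in common: 343.8, 511.7 and 31.7 Mb in either replicate, 174.5, 321.5 and 4.97 Mb in islands with an adjusted p below 1e-10, and 132.2, 138.1 and 1.74 Mb at a fold of at least 2. Joining islands over gaps of up to 5 kb gave 277.1 Mb for H3K27me3 and 14.03 Mb in common. Leaving out each library gave 276.2 to 288.0, 412.5 to 447.1 and 12.8 to 15.8 Mb. Without scaling to the library, 3 chromosomes were higher in H3K27me3 and 17 in H3K9me3, and log2 differences turned negative on chromosomes 2 (-0.23), 4 (-0.51), 7 (-0.47), 13 (-0.56), 14 (-0.47), 16 (-0.37) and 18 (-0.49), by the construction of the measure. At a fold of at least 2, chromosomes 1 (0.055), 6 (0.23), 8 (0.0893), 13 (-0.41), 16 (-0.16) and 18 (-0.19) changed sign, and the cause was not tested.

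Stems of at least 5 genes gave 374 and 127 calls towards H3K27me3 and H3K9me3, of 632 tested. Stems of at least 20 genes gave 78 and 20, of 121 tested. The main fit gave 171 and 53, of 274 tested, and centring on the mean over all genes gave 126 and 94 of these 274. Replicate numbers are shared between the marks, but the deviations of same-numbered libraries had a correlation of -0.60 over chromosomes and -0.06 over stems, so the numbers were not taken as pairs. With the replicate number as a block, 7 and 10 chromosomes and 167 and 48 stems were called towards H3K27me3 and H3K9me3. A crossed block, chosen after seeing the data, called 9 and 10 chromosomes.

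The difference in H3K27me3 cover between windows with no gene and with 20 or more, -15.7 points, was -10.9 in 5 Mb windows, -20.9 in either replicate, -13.8 at the strict adjusted p and -18.6 to -18.0 without a library. That of H3K9me3, 20.7 points, was 27.8 in either replicate and 23.7 to 24.8 without a library. It was -10.6 in 5 Mb windows, of which 1 held no gene, with 0% cover. Genes covered by H3K27me3 numbered 5293 with at least 1 base, 846 at 90% of the length and 1576 at a fold of at least 2. Those covered by H3K9me3 numbered 4643, 619 and 569, with 2054 by either gene end and 1623 in either replicate. The median fold difference between the marks, -0.09, was 0.0796 from total reads and 0.41 in islands of at least 10 kb. Its sign thus changed in both, and the cause was not tested. The CpG ratio of promoters under H3K27me3 minus all, -0.223, was -0.224 by the start site base, -0.234 in either replicate, -0.211 at the strict adjusted p and -0.230 without a library. For H3K9me3, -0.165, it was -0.222 in either replicate, -0.187 at the strict adjusted p and -0.210 to -0.197 without a library. These moves of the CpG ratio exceed the small spread between replicates, and neither CpG difference changed sign. Of 49 families, the leading mark changed in 4 with at least 1 base (Sox, serpins, collagens, proteasome), in 2 by gene end (Gata, chemokines) and in 1 in either replicate (chemokines). Island length and open chromatin kept their direction under every alternative run.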

Other observations

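Defensins and keratin-associated proteins differed between chromosomes in H3K27me3. Of 53 defensins on chromosome 8, antimicrobial peptides, 0 were covered by H3K27me3 and 2 by H3K9me3, while of 11 on chromosome 2, 7 and 0 were covered. Keratin-associated proteins, of the hair shaft, had 0 of 24 under H3K27me3 and 2 under H3K9me3 on chromosome 16, with 7 and 10 of them covered in H3K9me3 replicates 1 and 2 alone, and 5 of 23 and 0 on chromosome 11. The shares of all genes were 11.2% and 4.93%, and the differences were not tested. On chromosome Y, left out of the fit, H3K27me3 had 1 island in each library and H3K9me3 had 43 and 40. That H3K27me3 island had 335 control reads per kb in both libraries, against 35.98 and 36.1 over all islands of the mark. The H3K9me3 islands on Y had 44.6 and 44.3. The part of the control depth was not tested.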
